A study of Drosophila melanogaster with 90 samples.

Results

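Glutathione transferases and UDP-glycosyltransferases make up the conjugation step of detoxification in insects. The genes described here are the rows of the gene count table whose FlyBase symbol begins with GstD, GstE, GstO, GstS, GstT, GstZ or Ugt followed by a digit, which gave 48 of 9027 genes, 29 of them Gst and 19 Ugt. All 48 passed the filter on low counts and were tested. The name table held 70 such symbols, 35 Gst and 35 Ugt, and the 22 without a row, among them GstD4 to GstD8, GstE10 and most genes of the Ugt37 and Ugt303 families, were not analysed here.

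Glutathione transferases join the tripeptide glutathione to reactive, electrophilic molecules, such as insecticides and products of lipid peroxidation, which makes them soluble and less harmful. UDP-glycosyltransferases attach a sugar, in insects mostly glucose from UDP-glucose, to small lipophilic molecules such as plant toxins, odorants, pigments and hormones. In the insect head both families are known from the antennae and the fat body.

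The libraries came from heads of Canton-S females of Drosophila melanogaster in 3 treatments. Wildtype-mated females had mated with wildtype males, SP-null-mated females with males that lack Sex Peptide, a seminal peptide that changes female behaviour and physiology after mating, and virgin females had not mated and were frozen at the same times of day. Flies lived on yeast and glucose food at 25 °C with lights on at 8 AM for 12 h, mating took place between 8 and 11 AM, and heads were frozen at 10 times, from 0.5 h and each full hour from 1 to 6 h to 8 h, 12 h and 24 h later, in 3 repeats of the whole series called A, B and C. The 12 h samples therefore fall at or after lights off, and the 24 h samples return to the clock time of the first ones. The sources used here do not give the age of the females.

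Of 90 samples, 87 libraries were analysed, 3 in each of 27 groups and 2 in the other 3 groups, which are wildtype-mated females at 2 h and 3 h and virgins at 6 h. Total counts ran from 15411046 to 103387056, the highest in the wildtype-mated library of 24 h from repeat A. Marker genes of the head were present throughout: the summed level of 7 photoreceptor genes was 36334 to 37850.5 CPM in wildtype-mated, 33849 to 36571 CPM in SP-null-mated and 36846 to 38463 CPM in virgin females at 12 h. CPM are counts per 1000000 counts after TMM scaling. None of 6 ovary markers was tested here, and of 6 gut markers 2 were. No measurement in these heads checks whether the mates carried Sex Peptide.

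Levels of different genes are compared here per length, as RPKM, which is CPM per kilobase of annotated exons. The members spanned from 0.785 RPKM for Ugt302K1 to 380.4 RPKM for GstD1, as means over the 87 libraries. GstD1, which breaks down DDT and conjugates lipid peroxidation products, lies at chr3R:12367817-12369268 of the dm6 assembly and stood at 380.4 ± 40.1 RPKM (SD over libraries), rank 189 of 8974 genes with a length. GstE12 followed at 299 ± 25.8 RPKM and GstE9 at 139 ± 25.5 RPKM. Of the 48 members 16 ranked in the upper 25% of all genes by RPKM and 20 in the lower 50%.

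In the other subfamilies the highest member per length was GstO3 of the omega class at 66.4 ± 7.26 RPKM, GstT4 of the theta class at 54.5 ± 5.93 RPKM and GstZ2 of the zeta class at 19.0 ± 6.96 RPKM. The single sigma-class gene GstS1 stood at 35.1 ± 4.82 RPKM. Among the Ugt families, Ugt49B1 at 63.6 ± 15.9 and Ugt35B1 at 63.3 ± 25.7 RPKM were the highest, and they did not differ beyond their spread. Ugt302C1 stood at 42.7 ± 7.38, Ugt301D1 at 26.3 ± 5.61, Ugt37D1 at 20.1 ± 3.70 and Ugt36E1 at 16.5 ± 2.45 RPKM. Ugt316A1 at 9.38 ± 0.678, Ugt317A1 at 4.54 ± 0.827 and Ugt50B3 at 3.78 ± 0.539 RPKM closed the order.

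**Figure D1:**
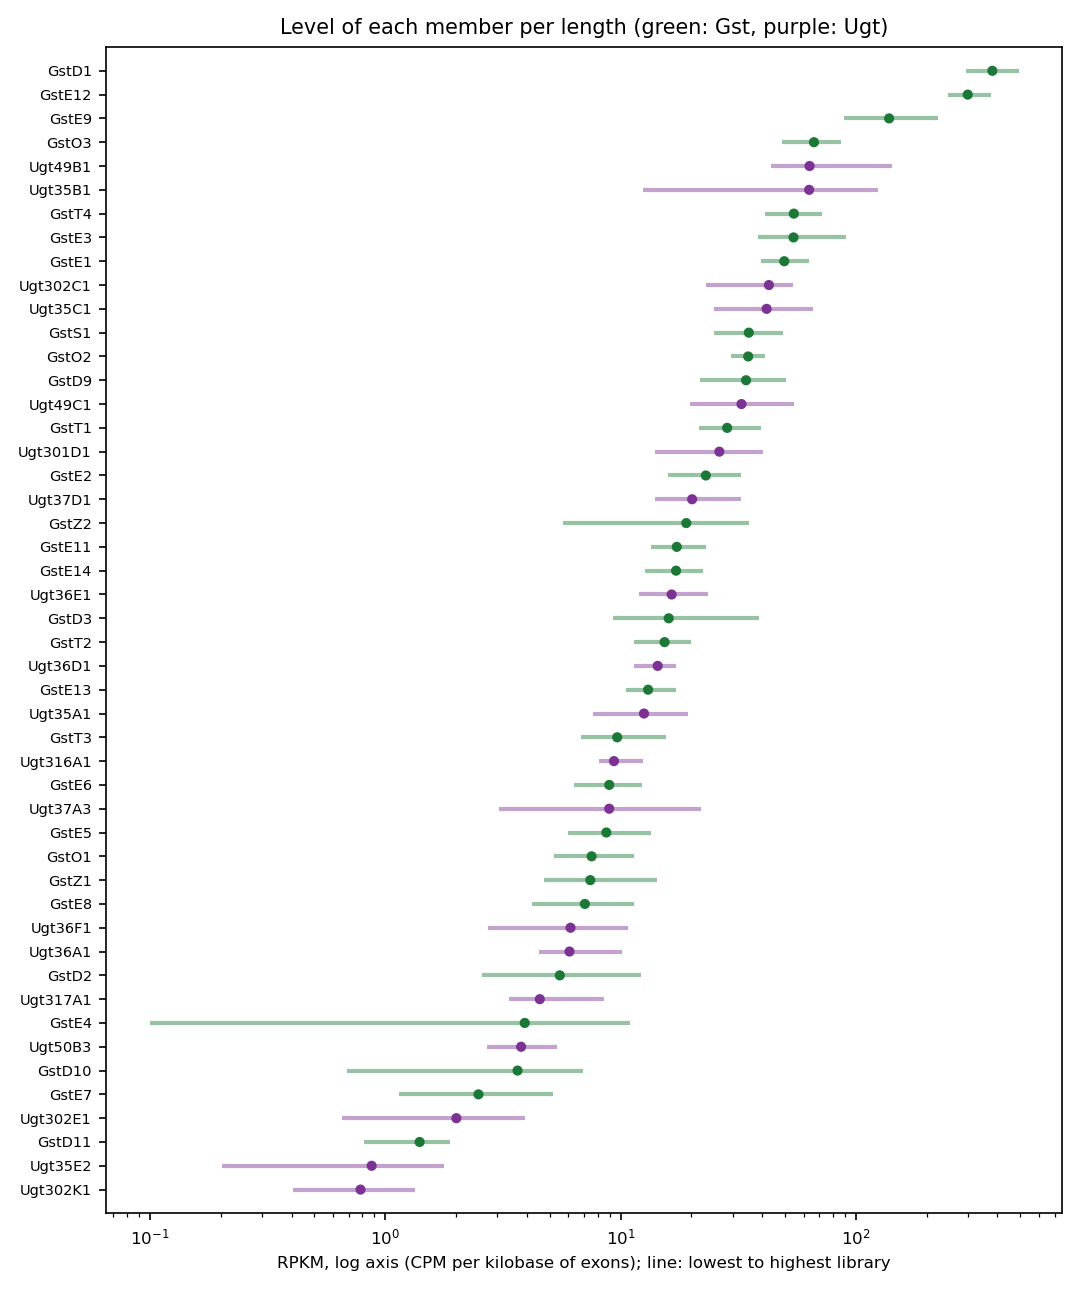
Level of each of the 48 members in RPKM on a logarithmic axis, with the mean over 87 libraries as a point and the lowest to highest library as a line. GstD1 and GstE12 head the list at 380.4 and 299 RPKM, and the line of GstE4 is drawn from 0.1 because 3 of its libraries were at 0.

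Most members changed with the hour of sampling. An F test across the 10 time points (edgeR quasi-likelihood test, Benjamini-Hochberg adjustment over all 9024 genes tested, called at an adjusted p under 0.05) called 33 of 48 members (68.8%) in wildtype-mated females, where 52.6% of all genes were called. In SP-null-mated females it called 31 members (64.6%) against 36.5% of all genes, and in virgins 29 members (60.4%) against 29% of all genes. With a whole repeat left out the counts were 21 to 23, 20 to 24 and 18 to 20. The 3 time courses share no library, and 20 members (41.7%) were called in all 3 of them, against 18.3% of all genes. Another 10 members were called in 2 treatments, 13 in 1, and 5 in none, namely GstE4, GstE11, Ugt37A3, Ugt50B3 and Ugt302E1.

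The direction of the change was mostly downward toward the evening. At 12 h, compared with the mean of the 0.5 h and 1 h groups, 19 members (39.6%) were lower in wildtype-mated females against 14.7% of all genes, 14 (29.2%) in SP-null-mated females against 13.3%, and 22 (45.8%) in virgins against 12.3%. Higher at 12 h were 6 members in wildtype-mated females against 20.4% of all genes, 9 in SP-null-mated females against 16.1%, and 4 in virgins against 12.7%. Without repeat B 1 member was higher in wildtype-mated females, and without repeat A 2 were. The median member changed by -0.18 in wildtype-mated, -0.13 in SP-null-mated and -0.32 in virgin females on the log2 scale, while the median of all genes lay at 0.00, 0.01 and 0.01. In RNA from whole heads, fewer cells of a type and less RNA per cell cannot be told apart. Marker genes of some other cell types were also lower in the evening. In virgins the summed level of 6 fat body genes was 94609 to 114764 CPM at 12 h and 132928 to 234496 CPM at 0.5 h, that of 3 haemocyte genes 229 to 265 CPM at 12 h and 315 to 389.6 CPM at 0.5 h, and that of 5 muscle genes 2557 to 3128 CPM at 12 h and 3251 to 3382 CPM at 0.5 h. By the same test 2 of 6, 2 of 3 and 1 of 5 of these genes were lower at 12 h and none higher. In wildtype-mated females the fat body sum was 136159 to 142098 CPM at 12 h and 112642 to 149118 CPM at 0.5 h, which overlap, while in SP-null-mated females it was 98237 to 104083 CPM at 12 h and 130313 to 163917 CPM at 0.5 h. The haemocyte sum was 241 to 292 CPM at 12 h and 315 to 380.3 CPM at 0.5 h in wildtype-mated females, and 276 to 288 and 345 to 373 CPM in SP-null-mated females. The muscle sum was 2662 to 3159 CPM at 12 h and 3351 to 3859.9 CPM at 0.5 h in wildtype-mated females, and 2554 to 2956 and 3485 to 3705 CPM in SP-null-mated females. Haemocyte and muscle sums were thus lower at 12 h without overlap in each treatment, and the fat body sum in SP-null-mated and virgin females. So were the neuron sum in wildtype-mated, the photoreceptor sum in SP-null-mated and the glia sum in virgin females. The glia sum in wildtype-mated females was higher, at 2500.2 to 2659 against 2225 to 2451 CPM. At 24 h the muscle sum still lay below 0.5 h, at 1766 to 2726 CPM in wildtype-mated and 2589 to 2846 CPM in SP-null-mated females. The part of these cell types in the change of the members was not tested.

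14 members were lower at 12 h in all 3 treatments, against 5.43% of all genes, and 2 were higher in all 3, against 6.66%. The 14 were GstD3, GstD9, GstD10, GstO3, GstT4, GstZ2, Ugt35A1, Ugt35B1, Ugt35E2, Ugt36D1, Ugt36F1, Ugt49B1, Ugt49C1 and Ugt302C1. The 2 were Ugt36A1 and Ugt37D1. No member was lower in some treatment and higher in another.

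**Figure D2:**
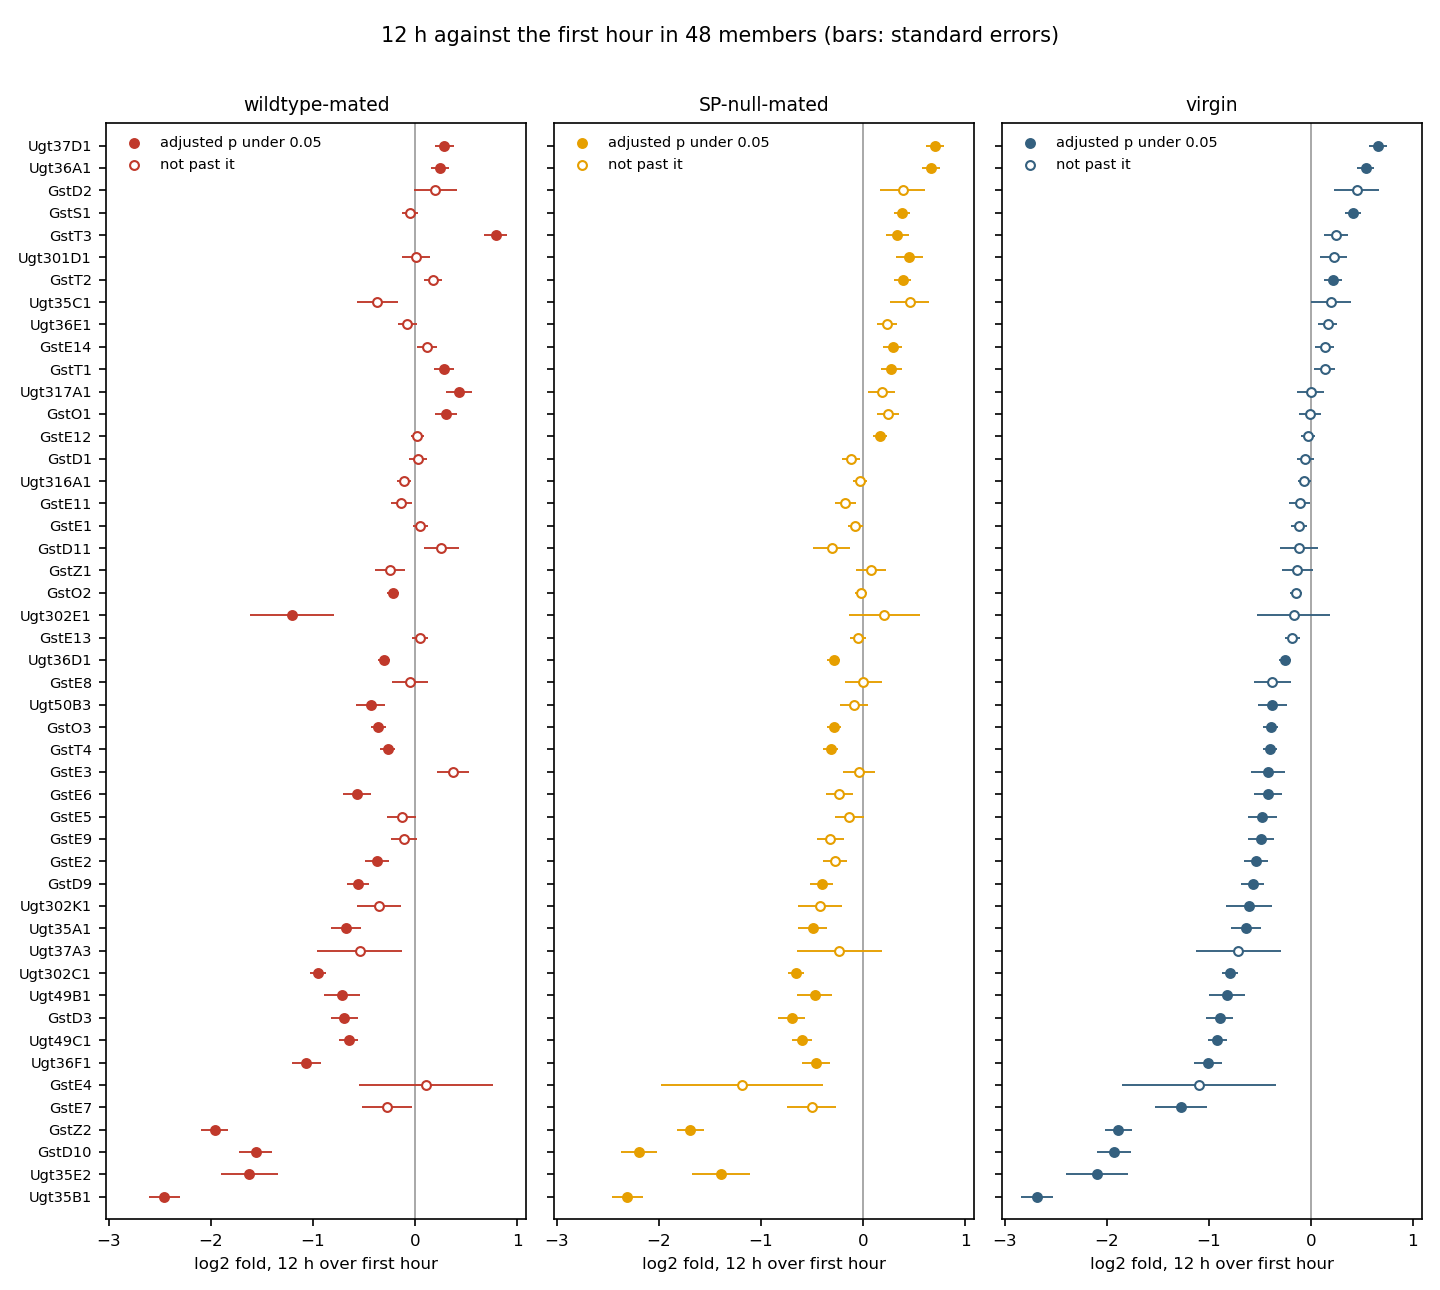
Log2 fold change at 12 h over the first hour for each of 48 members, with standard errors, in wildtype-mated, SP-null-mated and virgin females, ordered by the virgin value. Filled points passed the test, and Ugt35B1, Ugt35E2, GstD10 and GstZ2 lie farthest to the left in each panel, from -2.68 to -1.39.

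Ugt35B1, a glycosyltransferase gene at chr3R:11168503-11170246 that has been described in antennae, had the widest daily range. In virgins its level was 146, 163 and 145 CPM at 0.5 h, 50.6, 66.5 and 49.9 CPM at 8 h, 20.8, 26.8 and 21.2 CPM at 12 h and 162, 153 and 145 CPM at 24 h in repeats A, B and C. All 3 libraries at 12 h lay below every library of the other time points, and those at 24 h were back among the morning ones. At 12 h it was 27.8, 30.4 and 24.5 CPM in wildtype-mated, 27.1, 28.9 and 24.9 CPM in SP-null-mated and 20.8, 26.8 and 21.2 CPM in virgin females, so the trough recurred in each treatment. The highest group mean was 6.13-fold the lowest in wildtype-mated, 6.10-fold in SP-null-mated and 6.68-fold in virgin females (adjusted p for time 1.78e-18, 1.25e-19 and 4.30e-20).

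The summed antennal markers overlapped between evening and morning. The summed level of the 6 antennal markers tested, most of it from the odorant-binding protein gene Obp19d, was 642 to 994 CPM in virgins at 12 h and 785 to 954 CPM at 0.5 h. Obp19d ran from 506 to 1312 CPM over the libraries. The highest library was at 1.38 CPM for Obp83b, 1.71 for Obp83a, 3.14 for lush, 12.0 for Orco and 32.5 for Obp28a. Obp83b was at 0 in its lowest library. The sum thus follows Obp19d and says little about the rest of the list. Of these 6 genes 2 were called for time in wildtype-mated, 1 in SP-null-mated and 0 in virgin females. The sum was 859.5 to 986 CPM at 12 h and 651 to 1129 CPM at 0.5 h in wildtype-mated females, and 702 to 848 and 793 to 1061 CPM in SP-null-mated females. The part of the antennae in the Ugt35B1 trough was not tested.

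GstZ2 encodes a zeta-class enzyme, and in mammals this class isomerises maleylacetoacetate in the breakdown of tyrosine. Its level in virgins was 51.7, 58.5 and 63.0 CPM at 0.5 h, 14.2, 16.6 and 16.5 CPM at 12 h and 82.0, 60.4 and 73.1 CPM at 24 h. In wildtype-mated females it was 58.4, 59.7 and 60.9 CPM at 0.5 h, 13.3, 15.3 and 16.0 CPM at 12 h and 52.5, 61.1 and 62.9 CPM at 24 h. The evening libraries were the lowest and did not overlap with the morning ones in either treatment. The change at 12 h was -1.96 ± 0.13 in wildtype-mated, -1.69 ± 0.13 in SP-null-mated and -1.89 ± 0.13 in virgin females (log2 fold change ± SE, adjusted p 8.30e-19, 1.44e-16 and 2.48e-18).

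GstZ1, its neighbour 269 bases away on the same strand, followed another course. GstZ1 was at 6.63, 6.60 and 6.30 CPM at 12 h and 7.09, 7.97 and 8.70 CPM at 0.5 h in virgins, and its 12 h change of -0.13 ± 0.15 did not pass the test (adjusted p 0.575). The same held in wildtype-mated females at -0.24 ± 0.15 and in SP-null-mated females at 0.08 ± 0.15 (adjusted p 0.206 and 0.727). No test of the difference between the neighbours was made.

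Neighbours of Ugt35B1 were also low in the evening. Ugt35E2 lies 522 bases from Ugt35B1 and Ugt35A1 571 bases from it on the other side, all on the minus strand. Ugt35E2, the second lowest member by RPKM, was at 1.93, 2.33 and 2.40 CPM at 0.5 h, 0.655, 0.409 and 0.415 CPM at 12 h and 2.50, 2.58 and 2.49 CPM at 24 h in virgins. Its trough spanned 8 h and 12 h, and its change at 12 h was -1.62 ± 0.28 in wildtype-mated, -1.39 ± 0.28 in SP-null-mated and -2.10 ± 0.30 in virgin females (adjusted p 4.16e-06, 8.52e-05 and 1.19e-07). Ugt35A1 changed by -0.67 ± 0.15, -0.49 ± 0.15 and -0.64 ± 0.15 in the same order of treatments, each past the test. Ugt302C1, which lies 6433 bases from Ugt35E2 on the side away from Ugt35B1, was at 46.2, 52.0 and 50.7 CPM in wildtype-mated, 59.0, 61.8 and 61.2 CPM in SP-null-mated and 53.4, 62.1 and 53.9 CPM in virgin females at 12 h, below all of their morning libraries (adjusted p for time 8.46e-14, 1.86e-11 and 1.13e-11).

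In the GstD cluster, a row of genes on chromosome arm 3R whose enzymes act on insecticides and peroxidised lipids, GstD10, GstD3 and GstD9 were low in the evening. GstD10 in virgins was at 4.22, 5.18 and 4.81 CPM at 0.5 h, 1.00, 1.33 and 0.995 CPM at 12 h and 4.01, 4.02 and 4.28 CPM at 24 h. Its 12 h libraries were the lowest in each treatment, and its change was -1.56 ± 0.16 in wildtype-mated, -2.20 ± 0.17 in SP-null-mated and -1.93 ± 0.17 in virgin females (adjusted p 7.62e-12, 5.50e-16 and 1.14e-14). GstD3 changed by -0.70 ± 0.13, -0.70 ± 0.13 and -0.90 ± 0.14 and GstD9 by -0.56 ± 0.11, -0.40 ± 0.11 and -0.57 ± 0.11 in the same order of treatments, all past the test.

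GstD1 and GstD2 of this cluster had no call at 12 h in any treatment. GstD1 changed by 0.03 ± 0.085, -0.12 ± 0.086 and -0.06 ± 0.086 at 12 h in wildtype-mated, SP-null-mated and virgin females (adjusted p 0.83, 0.313 and 0.698). GstD2 changed with time in virgins (adjusted p for time 0.000465). It was higher in the afternoon, at 4.22, 5.79 and 5.33 CPM at 5 h. At 0.5 h it was at 2.50, 2.59 and 3.60 CPM, and at 24 h at 2.65, 2.01 and 1.89 CPM. The 5 h libraries stood above those of both other times.

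Ugt49C1 and Ugt49B1, neighbours on 2R, and Ugt36F1 and Ugt36D1, neighbours on 2L, also reached their lowest levels at 8 or 12 h. Ugt49C1 was at 45.1, 47.1 and 42.1 CPM in wildtype-mated, 42.4, 41.2 and 43.3 CPM in SP-null-mated and 37.5, 42.2 and 37.7 CPM in virgin females at 12 h, below every library of the first hour, which started at 54.8 CPM. Ugt49B1 changed by -0.71 ± 0.17, -0.47 ± 0.17 and -0.82 ± 0.17 and Ugt36F1 by -1.07 ± 0.14, -0.46 ± 0.13 and -1.01 ± 0.14 at 12 h in wildtype-mated, SP-null-mated and virgin females. Ugt36D1 changed by -0.30 ± 0.062, -0.29 ± 0.062 and -0.25 ± 0.062, each past the test.

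**Figure D3:**
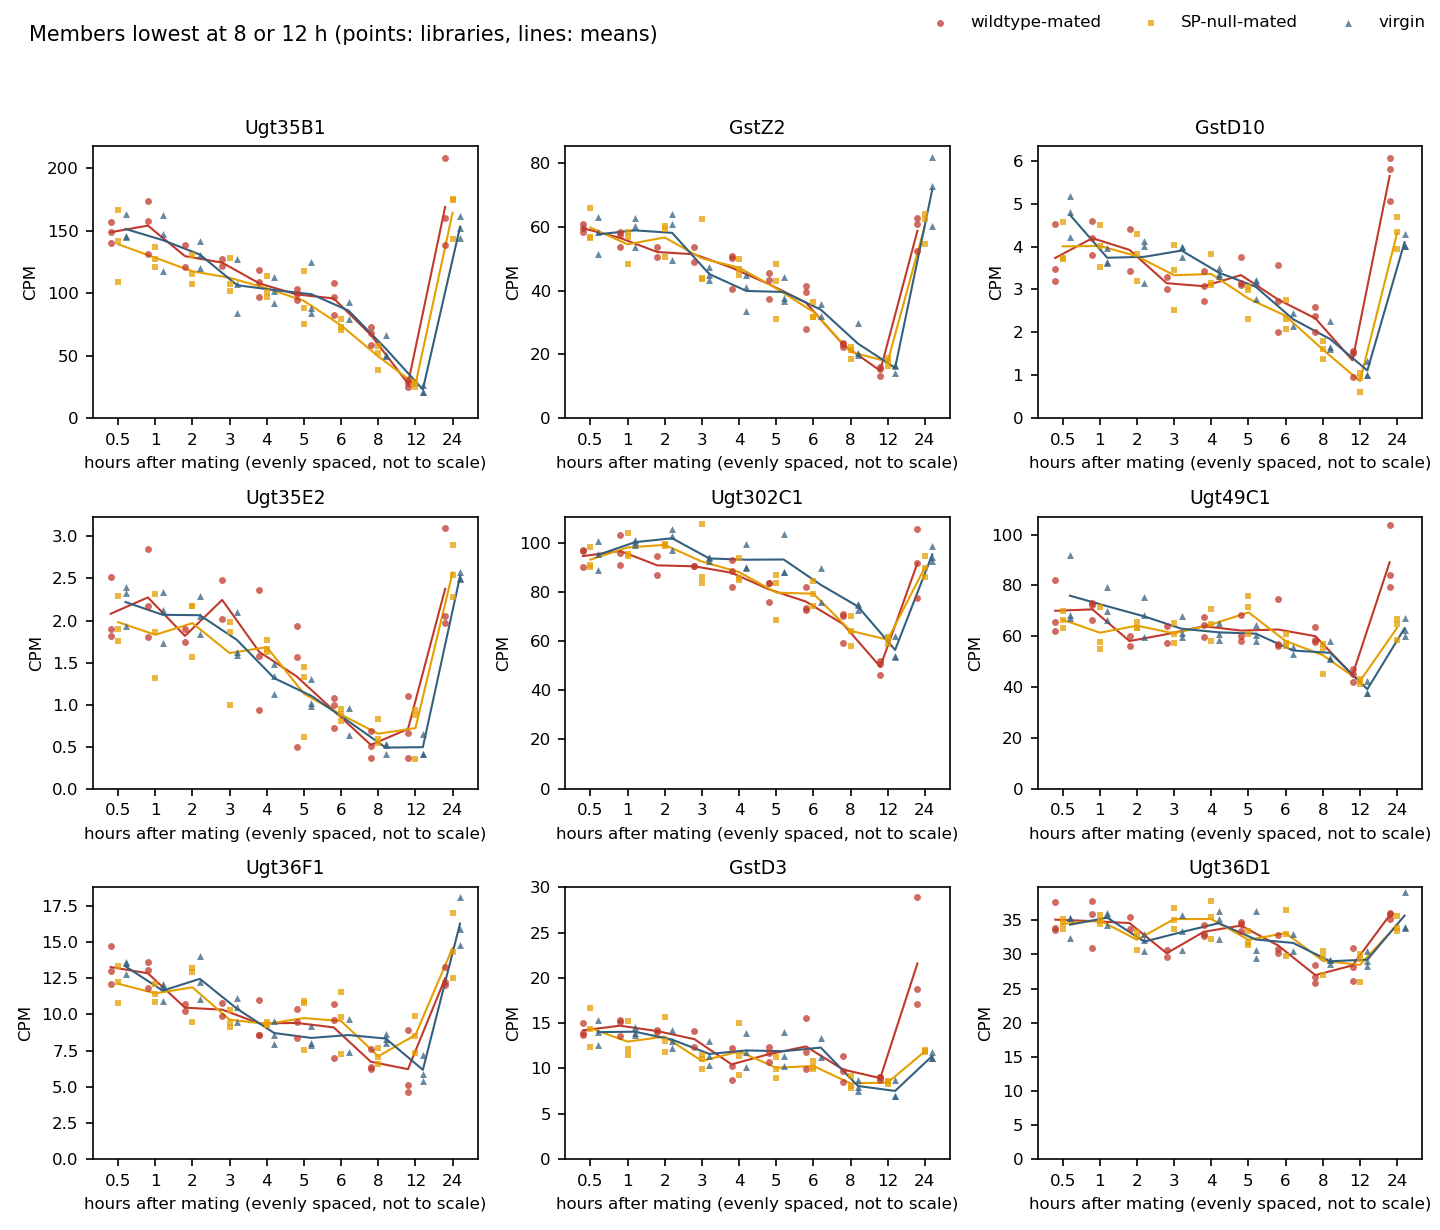
CPM of 9 members that were lowest at 8 or 12 h, by hours after mating, for wildtype-mated, SP-null-mated and virgin females, with libraries as points and group means as lines. In the panel of Ugt35B1 all 9 libraries at 12 h lie between 20.8 and 30.4 CPM and all 9 at 24 h between 138 and 209 CPM.

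GstT4 and GstO3 had the same timing with smaller changes. GstT4 changed by -0.27 ± 0.072, -0.32 ± 0.072 and -0.40 ± 0.072 and GstO3 by -0.36 ± 0.073, -0.28 ± 0.073 and -0.40 ± 0.073 at 12 h in wildtype-mated, SP-null-mated and virgin females, each past the test and each lowest at 12 h. GstO2, Ugt302E1 and Ugt302K1 were lower at 12 h in 1 treatment each and Ugt50B3 in 2. GstD11, GstE1, GstE8, GstE11, GstE13, Ugt36E1, Ugt37A3 and Ugt316A1 were among the 13 members with no call at 12 h.

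Of the 13 GstE members 6 were lower at 12 h in virgins, 2 in wildtype-mated females and 0 in SP-null-mated females, beside 12.3%, 14.7% and 13.3% of all genes. DESeq2 gave its own 12 h counts for all members together, 19, 15 and 23 lower in wildtype-mated, SP-null-mated and virgin females. In virgins GstE2, GstE3, GstE5, GstE6, GstE7 and GstE9 changed by -0.54 ± 0.12, -0.42 ± 0.16, -0.48 ± 0.14, -0.42 ± 0.14, -1.27 ± 0.25 and -0.49 ± 0.13. In SP-null-mated females all 6 had a negative 12 h change that did not pass the test, from -0.50 for GstE7 to -0.04 for GstE3. Whether the 12 h change differed between treatments was not tested for these genes.

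GstE4 was the least steady member. It ran from 0 to 9.22 CPM between libraries, with 0, 2.96 and 4.01 CPM in the 3 SP-null-mated libraries at 2 h, and had no call for time in any treatment.

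A smaller set rose over the day. Ugt37D1 in virgins was at 32.9, 36.2 and 35.9 CPM at 0.5 h, 58.5, 57.3 and 54.7 CPM at 12 h and 39.7, 35.2 and 36.1 CPM at 24 h. The 12 h libraries were above all others of that treatment (adjusted p for time 5.07e-08). Its rise at 12 h was 0.29 ± 0.090 in wildtype-mated, 0.70 ± 0.088 in SP-null-mated and 0.66 ± 0.089 in virgin females, and that of Ugt36A1 was 0.25 ± 0.089, 0.67 ± 0.087 and 0.54 ± 0.087 (adjusted p between 2.35e-09 and 0.0232).

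GstS1 and the theta-class genes GstT1, GstT2 and GstT3 were higher at 12 h in 2 treatments each. GstS1 encodes the sigma-class enzyme, which conjugates the lipid peroxidation product 4-hydroxynonenal and is abundant in flight muscle. It changed by 0.38 ± 0.077 in SP-null-mated and 0.41 ± 0.077 in virgin females (adjusted p 9.46e-05 and 2.43e-05) and by -0.05 ± 0.079 in wildtype-mated females (adjusted p 0.645). GstT3 rose by 0.79 ± 0.11 in wildtype-mated and 0.34 ± 0.11 in SP-null-mated females, against 0.24 ± 0.11 in virgins, where the test was not passed (adjusted p 4.57e-08, 0.0184 and 0.113).

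Single members rose in single treatments. In SP-null-mated females GstE14, which encodes Noppera-bo, a glutathione transferase needed for ecdysteroid synthesis, rose by 0.29 ± 0.093, GstE12 by 0.17 ± 0.066 and Ugt301D1 by 0.45 ± 0.13 at 12 h. In wildtype-mated females GstO1 rose by 0.30 ± 0.10 and Ugt317A1 by 0.43 ± 0.13.

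Few members, and few of all genes, differed from the first hour after a day in SP-null-mated and virgin females. At 24 h, compared with the first hour, 2 members (4.17%) were called in SP-null-mated females against 7.88% of all genes. In virgins 3 (6.25%) were called against 4.65%. In wildtype-mated females 14 (29.2%) were called against 39.7% of all genes, 12 of the 14 higher and 2 lower.

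Genes around these pathways gave a reference for the timing. The clock genes per, tim and vri, whose transcripts peak in the evening, rose in virgins at 12 h by 2.40 ± 0.18, 2.91 ± 0.23 and 2.70 ± 0.19, and the morning genes Clk and cry changed by -2.25 ± 0.10 and -1.42 ± 0.067 (log2 ± SE). Of 8 genes tested for glutathione synthesis and handling, 5 were called for time in virgins, beside 29% of all genes. Gclm, the modifier subunit of the ligase that limits glutathione synthesis, rose by 1.71 ± 0.11 (adjusted p 7.90e-20), and its catalytic partner Gclc by 0.14 ± 0.052 (adjusted p 0.0342). Of the 8 genes 4 were higher and 2 lower at 12 h, beside 12.7% and 12.3% of all genes. The lower ones were gfzf at -0.25 ± 0.070 and se, an eye pigment enzyme, at -0.33 ± 0.096 (adjusted p 0.00611 and 0.0074). Gclc was not called across the 10 time points in virgins (adjusted p 0.468).

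In the UDP-sugar supply list, which also holds the sulfate donor gene Papss, 3 of the 4 genes tested fell in virgins at 12 h. Of all genes 12.3% were lower and 12.7% higher there, which also holds for the lists below. The UDP-glucose dehydrogenase gene sgl changed by -0.61 ± 0.086, UGP, which makes UDP-glucose, by -0.46 ± 0.14, and Papss, which makes the sulfate donor of sulfotransferases, by -0.82 ± 0.16 (adjusted p 6.83e-08, 0.00918 and 3.99e-05). Of 9 regulators of detoxification genes, 3 fell and 1 rose. The stress regulator cnc changed by -0.21 ± 0.060, its inhibitor Keap1 by -0.36 ± 0.085 and the juvenile hormone receptor gene gce by -0.27 ± 0.064, while Pdp1, also a clock output factor, rose by 0.86 ± 0.11. Of 7 sulfotransferase and export genes, St1 and Mdr49 fell, by 0.39 and 0.44 on the log2 scale.

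Fewer members were called between treatments than across the hours. An F test over the 10 time-point contrasts called 17 of 48 members (35.4%) between wildtype-mated and virgin females, where 28.6% of all genes were called. Between SP-null-mated and virgin females it called 3 members (6.25%) against 7.06% of all genes, and between females mated to wildtype and to SP-null males 11 (22.9%) against 18.5%. With the repeats as a block the 3 became 5, and without repeat B or repeat C they became 0. The 17 became 25 with the block and 23 with DESeq2, and the 11 became 12 with each. With a repeat left out the 17 became 7 to 10 and the 11 became 4 or 5. Between wildtype-mated and virgin females the smallest adjusted p after that of GstS1 belonged to Ugt37D1, Ugt36A1, GstD3, GstT3, GstD1, Ugt35C1 and Ugt317A1, from 0.000139 to 0.00395. Between females mated to wildtype and to SP-null males it belonged to GstD3, Ugt36A1, GstO3, Ugt35C1, Ugt37D1, Ugt49C1 and GstT2, from 0.000592 to 0.0121. The comparisons share libraries, so their calls are given one after the other and not set against each other.

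The difference itself changed with time in 7 members between wildtype-mated and virgin females, where 14.2% of all genes did, and in 6 between females mated to wildtype and to SP-null males, where 11.8% did. With the repeats as a block these counts were 12 and 10, and with a repeat left out 0 to 2 and 0 or 1. Between SP-null-mated and virgin females it was 0 members by edgeR, where 5.62% of all genes were called, and 1 by DESeq2 and 1 with the block. For the first pair of counts the shares among the members are near those among all genes.

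All calls between wildtype-mated and virgin females from 0.5 to 12 h were of lower levels after mating. Of all 48 members, 10 to 21 had a positive log2 difference at each time from 0.5 to 8 h, and 28 did at 12 h. Between wildtype-mated and virgin females 0 members were called at 0.5, 1, 2, 3 or 6 h by edgeR or DESeq2, although 5, 2, 4, 8 and 3 members had an unadjusted p under 0.05. Lower in wildtype-mated females were 1 member at 4 h against 0.199% of all genes, 3 at 5 h against 0.698%, 3 at 8 h against 1.42%, and 4 at 12 h against 2.14%.

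GstS1 was called at each of these 4 time points. At 12 h it was at 71.7, 78.9 and 68.8 CPM in wildtype-mated females, 89.4, 103 and 102 CPM in SP-null-mated females and 109, 88.2 and 112 CPM in virgins. All 3 wildtype-mated libraries lay below all of the others, and the SP-null-mated and virgin ranges overlapped. Against virgins it differed by -0.38 ± 0.091 at 4 h and -0.40 ± 0.091 at 5 h, then by -0.37 ± 0.091 at 8 h and, last, -0.49 ± 0.090 at 12 h (adjusted p 0.0349, 0.00688, 0.00767 and 8.69e-05). The difference from SP-null-mated females was -0.38 ± 0.091 at 8 h and -0.43 ± 0.091 at 12 h (adjusted p 0.0044 and 0.000785). The 8 h call was lost without repeat A and the 12 h call without repeat C (adjusted p 0.0715 and 0.0561). In the F test over all times GstS1 had the smallest p of the members in each pair. Its adjusted p was 6.36e-08 between wildtype-mated and virgin females.

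The sums of several marker lists also set wildtype-mated females apart at 12 h. The summed level of 4 neuron genes was 2067 to 2218 CPM in wildtype-mated, 2362 to 2532 CPM in SP-null-mated and 2302 to 2331 CPM in virgin females, and that of 2 gut genes was 207 to 221, 239 to 299 and 273 to 281 CPM, both lowest in wildtype-mated females without overlap. The sum of 4 glia genes was 2500.2 to 2659 CPM in wildtype-mated, 2140.1 to 2271 CPM in SP-null-mated and 2099 to 2149 CPM in virgin females, and that of 6 fat body genes was 136159 to 142098, 98237 to 104083 and 94609 to 114764 CPM, both highest in wildtype-mated females without overlap. The sum of 5 muscle genes, at 2662 to 3159 CPM in wildtype-mated, 2554 to 2956 CPM in SP-null-mated and 2557 to 3128 CPM in virgin females, overlapped between all 3. Most of the gut sum came from LManII. The F test over all times called 0 of the 4 neuron genes in any pair of treatments. Between wildtype-mated and virgin females it called 2 of 2 gut, 2 of 4 glia, 2 of 6 fat body and 1 of 5 muscle genes. Between females mated to wildtype and to SP-null males it called 0, 1, 1 and 1 in the same order. The shares of all genes were 28.6% and 18.5%. The part of these cell types in the evening differences of the members was not tested.

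The 12 h call of GstS1 against virgins was kept with each repeat left out, whereas its calls at 4 h and 5 h were lost with any repeat left out and that at 8 h without A or C.

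At 5 h GstD1 and GstT3 were also lower after mating. GstD1 was at 247, 281 and 279 CPM in wildtype-mated and 329, 396 and 351 CPM in virgin females at 5 h, with no overlap (log2 fold change -0.42 ± 0.099, adjusted p 0.0109). GstT3 was at 10.9, 12.1 and 13.3 CPM in wildtype-mated and 13.5, 20.7 and 18.5 CPM in virgin females at 5 h, where the lowest virgin library lay just above the highest wildtype-mated one (-0.53 ± 0.13, adjusted p 0.0189). The call of GstD1 was lost with any repeat left out (adjusted p 0.115, 0.149 and 0.0893 without A, B and C), and that of GstT3 was kept only without A.

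GstS1, GstD1 and GstT3 made up the single-time calls of SP-null-mated females, of which GstS1 at 4 h used the virgin libraries of its wildtype-mated call. Lower than in virgins were 1 member at 2 h against 0.698% of all genes and 2 at 4 h against 0.931%, and 0 members were called at the other 8 times by edgeR or DESeq2, where 1 to 11 members had an unadjusted p under 0.05. GstS1 at 4 h was at 70.8, 60.7 and 61.8 CPM in SP-null-mated and 91.1, 88.0 and 91.3 CPM in virgin females (-0.48 ± 0.091, adjusted p 0.00111), and GstD1 at 4 h was at 260.4, 295 and 247 CPM in SP-null-mated and 362, 325 and 342 CPM in virgin females (-0.36 ± 0.099, adjusted p 0.0341). In both genes the groups did not overlap. GstT3 at 2 h was at 9.46, 9.52 and 11.3 CPM in SP-null-mated and 13.1, 13.8 and 14.7 CPM in virgin females (-0.45 ± 0.14, adjusted p 0.0358), again without overlap. The GstT3 call was lost with any repeat left out, that of GstD1 was kept only without B, and that of GstS1 was lost without C at an adjusted p of 0.0606.

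GstE9 was called over all times between SP-null-mated and virgin females (adjusted p 0.0128) without passing at a single one. Its log2 difference was negative at 9 of 10 time points, reaching -0.39 ± 0.15 at 4 h (adjusted p 0.169). Its exons overlap imd on the other strand by 40 bases, and the sources used here do not say which strand setting the counting had. Such overlaps also exist in Ugt49B1 (CG44245, 90 bases), GstO2 (se, 61) and Ugt36E1 (CG17597, 48). Shorter ones lie in GstE12 (CG3894, 33), GstE1 (GstE10, 20) and GstE13 (CG18659, 6), and those of Ugt36A1 and GstT2 are given below.

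Some of the 19 Ugt genes were also called lower in wildtype-mated females at 8 h or 12 h. Ugt37D1, one of the genes that rose over the day, at 12 h was at 37.7, 48.9 and 45.0 CPM in wildtype-mated, 58.6, 63.5 and 59.5 CPM in SP-null-mated and 58.5, 57.3 and 54.7 CPM in virgin females, and the wildtype-mated libraries were below all of the others. The difference from SP-null-mated females was -0.46 ± 0.10 and that from virgins -0.37 ± 0.10 (adjusted p 0.00142 and 0.0162). At 8 h it was -0.43 ± 0.10 against virgins (adjusted p 0.00885). The call against SP-null-mated females was kept with each repeat left out, and both calls against virgins were lost without A or C.

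Ugt35C1, which had no call for its own change at 12 h in any treatment, differed by more on the log2 scale. It was at 48.1, 47.0 and 54.7 CPM in wildtype-mated, 87.5, 102 and 98.8 CPM in SP-null-mated and 77.1, 89.5 and 87.0 CPM in virgin females at 12 h, without overlap. The log2 difference was -0.94 ± 0.23 against SP-null-mated females and -0.76 ± 0.23 against virgins (adjusted p 0.00411 and 0.0312). Both calls were lost without repeat B (adjusted p 0.232 and 0.413), and the call against virgins was also lost without C (adjusted p 0.0505).

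Ugt301D1 at 8 h was at 42.9, 54.6 and 47.5 CPM in wildtype-mated, 61.2, 76.7 and 66.0 CPM in SP-null-mated and 78.6, 65.7 and 69.8 CPM in virgin females. The wildtype-mated libraries were again the lowest, with log2 differences of -0.49 ± 0.15 against SP-null-mated females and -0.56 ± 0.15 against virgins (adjusted p 0.0406 and 0.0217), and both calls were kept only without A. Ugt36E1 was lower than in virgins at 12 h, by -0.37 ± 0.11 (adjusted p 0.0283), a call lost with any repeat left out.

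Between females mated to wildtype and to SP-null males 2 members were lower at 8 h against 1.47% of all genes, and 6 at 12 h against 3.32%. The 6 were GstS1, Ugt35C1, Ugt37D1, Ugt301D1, Ugt302C1 and Ugt36A1, and 9 were called by DESeq2. Ugt302C1 differed by -0.29 ± 0.086 and Ugt36A1 by -0.31 ± 0.10 (adjusted p 0.0219 and 0.0361), and both calls were lost with any repeat left out. No member was called between these treatments from 0.5 to 6 h by edgeR or DESeq2, where 0 to 7 members had an unadjusted p under 0.05 at each time.

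**Figure D4:**
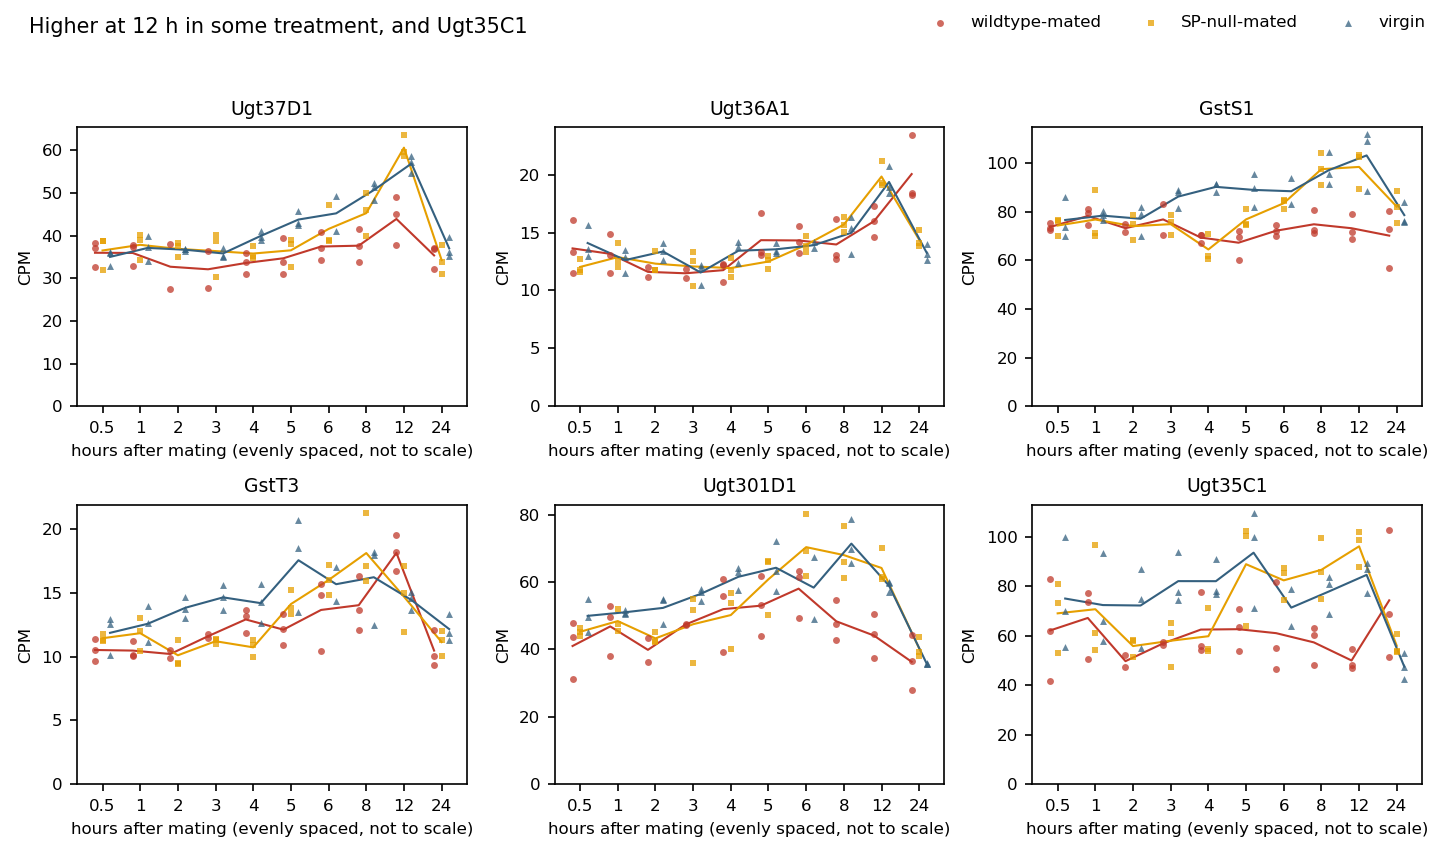
CPM of 5 members that were higher at 12 h than in the first hour in some treatment and of Ugt35C1, by hours after mating, for wildtype-mated, SP-null-mated and virgin females, with libraries as points and group means as lines. In the panel of GstS1 the wildtype-mated libraries stay between 68.8 and 78.9 CPM at 12 h, where the SP-null-mated and virgin libraries lie between 88.2 and 112 CPM.

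A day after mating most of the called members were higher in wildtype-mated females. At 24 h 14 members were higher and 1 lower in wildtype-mated than in virgin females, where 14.6% of all genes were higher and 14.6% lower. Against SP-null-mated females 10 were higher and 1 lower, where 14.4% of all genes were higher and 13.9% lower. These counts rested on repeat C of the wildtype-mated females at 24 h: without that library 3 of the 15 and 5 of the 11 calls were kept. The fit of the 24 h libraries alone gave 4 and 5 calls. How many of all genes were called in these settings is not given here, so the losses are not particular to the members.

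GstD3 was the member with the smallest p at 24 h. It was at 17.1, 18.8 and 28.9 CPM in wildtype-mated, 11.9, 12.0 and 11.8 CPM in SP-null-mated and 11.8, 11.2 and 11.2 CPM in virgin females. The wildtype-mated libraries were above all of the others, with C far above A and B. The log2 difference was 0.85 ± 0.14 against SP-null-mated females and 0.91 ± 0.14 against virgins (adjusted p 1.12e-05 and 3.03e-06). The calls were kept without library C (adjusted p 0.0033 and 0.00134). In the fit of the 24 h libraries alone the adjusted p was 0.0285 and 0.0257.

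Ugt36A1 and Ugt49C1 were the other 2 members called against virgins without that library. Ugt36A1 was at 18.4, 18.3 and 23.4 CPM in wildtype-mated, 13.8, 14.1 and 15.2 CPM in SP-null-mated and 13.1, 12.6 and 14.0 CPM in virgin females, again without overlap (0.59 ± 0.10 against virgins, adjusted p 1.25e-05). Against SP-null-mated females it was lower at 12 h and higher at 24 h, and the test of change with time was passed (adjusted p 0.00327). 400 bases of its exons overlap CG15418 on the other strand. Ugt49C1 was at 79.3, 84.2 and 104 CPM in wildtype-mated, 58.6, 66.6 and 64.7 CPM in SP-null-mated and 60.0, 62.3 and 67.0 CPM in virgin females (0.50 ± 0.11 against virgins, adjusted p 0.000365).

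Others depended on library C. Ugt49B1 was at 151, 142 and 249.7 CPM in wildtype-mated, 103, 128 and 137 CPM in SP-null-mated and 82.1, 108 and 119 CPM in virgin females (0.81 ± 0.19 against virgins, adjusted p 0.00147, and 0.0988 without C). Ugt317A1 was at 9.89, 9.78 and 15.9 CPM in wildtype-mated and 7.46, 7.13 and 7.47 CPM in virgin females (0.67 ± 0.15, adjusted p 0.00047, and 0.0522 without C). In both genes the wildtype-mated libraries were above the virgin ones, and C alone stood far apart. The fit of the 24 h libraries alone called neither against virgins (adjusted p 0.0719 for Ugt49B1 and 0.0662 for Ugt317A1).

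GstO3 of the omega class, whose enzymes reduce dehydroascorbate, was at 62.5, 63.5 and 76.1 CPM in wildtype-mated, 49.1, 54.2 and 52.6 CPM in SP-null-mated and 56.8, 53.2 and 55.6 CPM in virgin females at 24 h. The difference from SP-null-mated females, 0.37 ± 0.082, was kept without C (adjusted p 0.000571, and 0.0287 without C), and that from virgins, 0.29 ± 0.082, was not (0.00683 and 0.162). GstD2 was at 3.39, 4.17 and 4.13 CPM in wildtype-mated, 2.37, 2.27 and 2.22 CPM in SP-null-mated and 2.65, 2.01 and 1.89 CPM in virgin females. Its libraries A, B and C stood close together and above all of the others (0.81 ± 0.25 against virgins, adjusted p 0.013, and 0.0676 without C).

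The remaining members higher than in virgins at 24 h were GstE7 at 0.74 ± 0.25, Ugt35C1 at 0.64 ± 0.23, GstZ1 at 0.50 ± 0.16, GstD10 at 0.44 ± 0.14, GstT1 at 0.35 ± 0.11, GstD9 at 0.34 ± 0.12 and GstT2 at 0.24 ± 0.096 on the log2 scale. The adjusted p ran from 0.015 to 0.0476, and all 7 calls were lost without library C. In Ugt35C1, GstZ1 and GstD9 the wildtype-mated and virgin libraries overlapped. GstT2 shares 223 bases of exon with CG12926 on the other strand, and DESeq2 did not call it (adjusted p 0.0847).

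Ugt36F1 was the member lower than in virgins at 24 h, at 12.0, 13.3 and 12.2 CPM in wildtype-mated and 18.1, 15.9 and 14.8 CPM in virgin females, with no overlap (-0.39 ± 0.14, adjusted p 0.0329, and 0.12 without C and 0.0991 without A). GstS1 was the member lower at 24 h against SP-null-mated females, by -0.23 ± 0.090, with overlapping libraries (adjusted p 0.0463, and 0.472 without the deep library A).

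Marker genes of other cell types moved at 24 h too. The summed level of the 6 fat body genes tested, most of it from the yolk protein genes Yp1, Yp2 and Yp3, was 157605 to 183491 CPM in wildtype-mated, 87685 to 176171 CPM in SP-null-mated and 70914 to 124474 CPM in virgin females. The summed level of 5 muscle genes was 1766 to 2726 CPM in wildtype-mated, 2589 to 2846 CPM in SP-null-mated and 2689 to 3599.7 CPM in virgin females. The sum of 4 glia genes was 2320.1 to 2516 CPM in wildtype-mated, 2039 to 2139.7 CPM in SP-null-mated and 2063 to 2313 CPM in virgin females, highest in wildtype-mated females without overlap. That of 4 neuron genes was 2102 to 2368 CPM in wildtype-mated, below the 2463 to 2598 CPM in SP-null-mated females and overlapping with the 2359.7 to 2426 CPM in virgins. By the same test 3 of 6 fat body genes were higher and 3 of 5 muscle genes lower in wildtype-mated than in virgin females, none of the 6 and 5 the other way, and of the 4 glia genes 1 was higher and 1 lower. Their part in the 24 h differences was not tested, nor was that of the depth of library A.

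**Figure D5:**
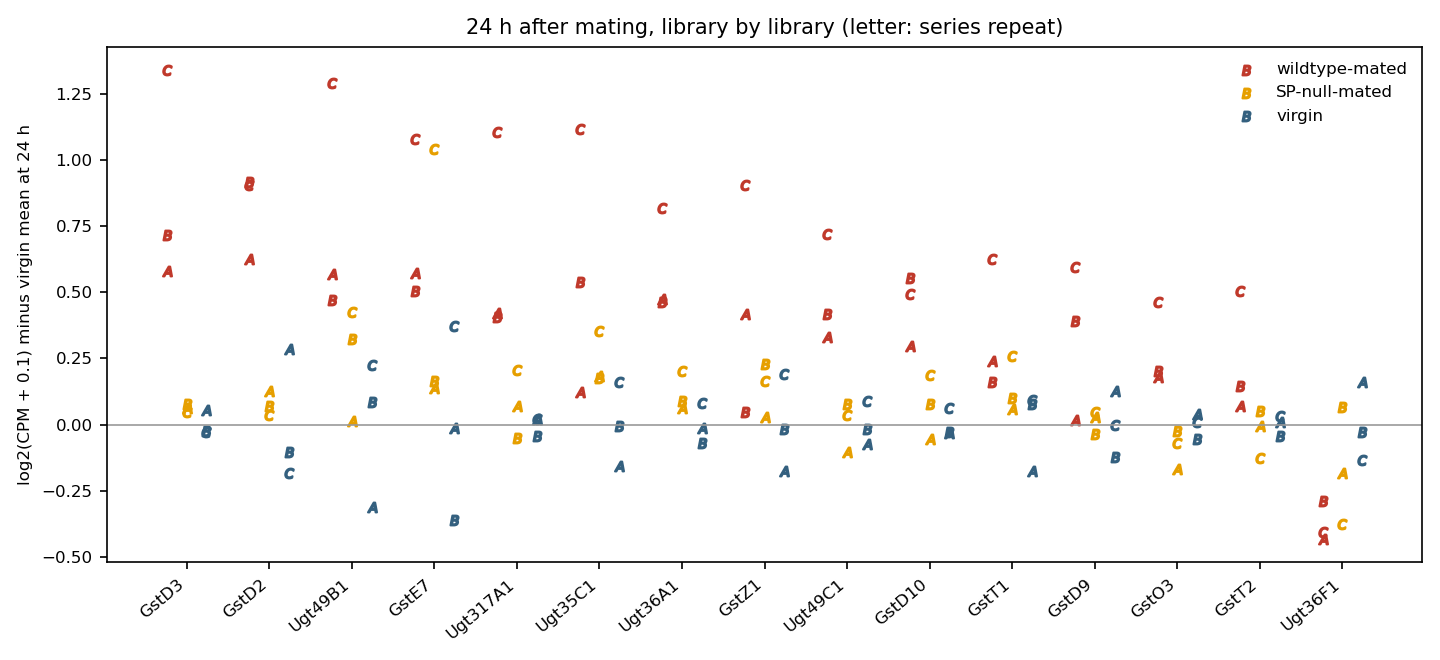
Log2(CPM + 0.1) of each library at 24 h minus the virgin mean, for the 15 members called between wildtype-mated and virgin females, with letters for the repeats and colours for wildtype-mated, SP-null-mated and virgin females. Letter C of the wildtype-mated females lies highest in GstD3, Ugt49B1 and Ugt317A1, at 28.9, 249.7 and 15.9 CPM.

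Among the genes around the pathways, 6 of 8 for glutathione synthesis and handling were called over all times between wildtype-mated and virgin females. So were 4 of 4 in the UDP-sugar supply list, Papss included, against the 28.6% of all genes given above. Of the 9 regulators of detoxification 3 were called, and of the 7 sulfotransferase and export genes 1 was, St1. Between SP-null-mated and virgin females the counts were 2 of 8, 2 of 4, 0 of 9 and 0 of 7, beside 7.06% of all genes. The called genes in that comparison were Gclc, Gclm, sgl and Papss (adjusted p 0.000362, 0.0129, 1.13e-05 and 0.000784).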

How the data were processed

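RNA was measured in female heads from poly(A)-selected stranded libraries. Per the submitters' processing notes, Trimmomatic 0.39, STAR 2.7.5a, HTSeq 0.11.2 and edgeR were used with dm6 and BDGP6; the sources used here give neither their roles nor the strand setting. The deposited gene table holds raw counts per gene. The exon-level table was not used here.

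Counts were tested with edgeR 4.0.16 (quasi-likelihood F tests, TMM scaling, filter on low counts, Benjamini-Hochberg adjustment over 9024 genes) in R 4.3.3, in a single model with a mean for each of 30 groups over 87 libraries. The method was tested on simulated data. SE is the log2 fold change divided by the root of F. RPKM used exon lengths of Ensembl release 115, which also gave coordinates. Total counts of 15411046 to 103387056 per library set the precision.

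Alternatives were RLE scaling, DESeq2 1.42.0, no filter, a replicate block, each repeat left out, a harmonic fit, 24 h left out and a separate fit per time point. Leaving out single 24 h libraries was chosen after the data had been seen. The series text says that the whole series was repeated 3 times, so the letters pair samples by repeat. Over 84 same-letter pairs the correlation of deviations had a median of 0.0800, from -0.283 to 0.381. No libraries of a group agreed within counting noise. The p-values measure a spread between repeats that is shared over all 30 groups, so a group with a wider spread is not judged by its own.

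Named in full were the 8 members with the smallest p among those called for time in each treatment and for each pair of treatments, members called at a single time point, and the highest member of each subfamily per length. Members and lists were chosen with earlier results of these data known. Promoter sequences were not used here.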

Additional observations from a re-analysis of the deposited data

Results flagged for a closer look

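In 7 members the gap between wildtype-mated and virgin females changed with time (edgeR quasi-likelihood test of the interaction, adjusted over all 9024 genes), which is 14.6% of the members beside 14.2% of all genes. The adjusted p was 0.000501 for Ugt36A1, 0.00472 for GstD3, 0.0186 for Ugt317A1, 0.0187 for GstD1, 0.0194 for Ugt49C1, 0.0197 for GstS1 and 0.0409 for GstT3. In 6 members the gap between females mated to wildtype and to SP-null males changed with time, with an adjusted p of 0.00327 for Ugt36A1, 0.00434 for GstO3, 0.00859 for GstS1, 0.0206 for GstD3, 0.0277 for GstT2 and 0.0412 for Ugt49C1. These 6 are 12.5% of the members beside 11.8% of all genes, so both counts lie near the share among all genes.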

How the results depend on the processing

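No named result reversed under any alternative. The replicate block kept all 104 named results past the threshold, DESeq2 lost 3, RLE scaling 2, and leaving out repeats A, B and C lost 40, 44 and 58. Of 48 single-time calls 11 were kept under each repeat left out, and a separate fit per time point lost 20.

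Members changing with time numbered 18 to 20 in virgins, 20 to 24 in SP-null-mated and 21 to 23 in wildtype-mated females with a repeat left out, and 28 to 34 in wildtype-mated females with a single 24 h library of theirs left out. Calls over all times numbered 7 to 10 between wildtype-mated and virgin females, 0 to 2 for SP-null-mated against virgin females and 4 to 5 between females mated to wildtype and to SP-null males with a repeat left out. Without 24 h they were 9 between wildtype-mated and virgin and 4 between females mated to wildtype and to SP-null males. With the replicate block the calls between SP-null-mated and virgin females were 5. Those between wildtype-mated and virgin females were then 25, and those between females mated to wildtype and to SP-null males 12.

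Differences that changed with time between wildtype-mated and virgin females numbered 12 with the block, 0 to 2 with a repeat left out, 3 without 24 h, 11 without wildtype-mated 24 h library B and 4 without C. Between SP-null-mated and virgin females the number was 1 with DESeq2 and 1 with the block. Between females mated to wildtype and to SP-null males it was 10 with the block, 0 to 1 with a repeat left out, 1 without 24 h and 3 without library C.

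Single-time calls between wildtype-mated and virgin females, 26 in all, numbered 33 with the block and 6 to 18 with a repeat left out. They numbered 17 by separate fit, and 14 without library C against 27 and 28 without A and B. Those between SP-null-mated and virgin females, 3 in all, numbered 4 with the block and 0 to 2 with a repeat left out. Those between females mated to wildtype and to SP-null males, 19 in all, numbered 25 and 7 to 14 in the same order. At 24 h the 15 calls against virgins numbered 5 to 14 with a repeat left out, 4 by separate fit and 3 without library C, and the 11 against SP-null-mated females numbered 4 to 8, 5 and 5. Members higher at 12 h numbered 1 to 6 in wildtype-mated and 5 to 6 in SP-null-mated females with a repeat left out, and members lower numbered 14 to 19, 11 to 13 and 16 to 21 in wildtype-mated, SP-null-mated and virgin females. The cause of these changes was not tested, and leaving out a repeat also leaves fewer libraries. Counts over all genes under these alternatives are not given here.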
